A study of Mus musculus with 26 samples.

Results

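The genes of cohesin and CTCF, the protein machinery that folds chromosomes into loops, were followed in mouse B cell precursors through 7 members: Smc1a, Smc3, Rad21, Stag1, Stag2, Nipbl and Ctcf. They were chosen by name, for what their proteins do, and are 7 of the 23762 genes in the deposited table of RNA-seq read counts. All 7 had reads in every library (the lowest count was 1315) and passed the filter on low counts, as did 14862 genes in all. The study asked how CXCR4, the receptor of the chemokine CXCL12, bears on rearrangement of Igk, the gene locus of the kappa light chain, and on the later steps of making a B cell. Its RNA-seq part holds 18 libraries in 9 groups of 2. One pair of groups was small pre-B cells, a resting stage before the light chain is made, sorted by flow cytometry and labelled wild type or CXCR4-/-. Pre-B cells with no deletion in their labels, called CXCR4-sufficient here, gave 5 groups of cultures. The IL-7 culture held interleukin 7, the growth factor of B cell precursors, the withdrawn culture had no IL-7, the CXCL12 culture had CXCL12 in its place, the double culture had IL-7 together with CXCL12, and the inhibitor culture was a CXCL12 culture to which ERK inhibitor II, a compound named for the kinase it blocks, was added. The last pair of groups were the CXCR4-/- withdrawn culture and the CXCR4-/- CXCL12 culture, both labelled as small pre-B cells, as is the title of replicate 2 of the withdrawn culture. For replicate 2 of the CXCL12 culture the header of the count column says small pre-B while the title says pre-B. The sources used here give no strain, age, means of deletion, doses or times. Nothing there ties replicates to separate animals or cultures either, so each p-value reflects only how much these libraries varied, which may be technical.

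Cohesin is a ring that clasps DNA. Smc1a and Smc3 are its paired ATPase arms, Rad21 is the clasp that closes them, and either Stag1 or Stag2 binds Rad21 and helps to hold the ring on chromatin. Nipbl, working with Mau2, loads the ring and drives it to reel in DNA as a growing loop, and CTCF, a zinc finger protein, halts it at bound sites and so sets the ends of loops. In pre-B cells such loops bring distant V gene segments of the immunoglobulin loci near the recombination centre. The same ring holds sister chromatids together in dividing cells until the protease separase, encoded by Espl1, cuts Rad21.

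Several facts about the libraries touch the results. Total counts ran from 17257914 to 50235192 per library. Replicate 1 of the CXCR4-/- withdrawn culture stood apart from its partner, with a chi-square of 264.5 per gene between the pair against 1.34 to 44.7 in the other 8 pairs, and each comparison of the 7 members, and each count over a list of chromatin genes, is therefore given with all 18 libraries and with the 17 others. The pairs of the withdrawn and CXCL12 cultures were almost as close as counting noise allows (1.48 and 1.34 per gene). In these, the IL-7 culture and sorted wild type the median squared difference of a gene was under 2 times its counting variance. Calls that ended when these 4 pairs, called the closest pairs here, were each summed to 1 library are named. The 4 libraries of the double and inhibitor cultures held 2034 to 2601 CPM (read counts scaled to a common library total) of Gapdh and Rps29 together, against 1.21 to 13.1 CPM in the other 14, and a change that crosses these sets cannot be told apart from a difference between the sets. Cxcr4 RNA was at 943 and 922 CPM in sorted wild type and at 37.2 and 409 CPM in sorted CXCR4-/-. It was at 114 and 130.0 CPM in the CXCR4-/- withdrawn culture and 137 and 133 CPM in the CXCR4-/- CXCL12 culture, within the 112 to 322 CPM of the other cultures. Which part of the gene was deleted is not given, so these counts do not check the labels, and CXCR4-/- here means labelled so. All 10 B lineage markers had reads in every group, with summed levels of 3698 to 11089 CPM per library. In bulk RNA, fewer cells of a type and less RNA per cell cannot be told apart.

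The RefSeq promoter table of GRCm38.p6 held 4 of the 7 members, and their 250 bases before the annotated start are printed to show what kind of promoter these genes share. They lie at chrX:152016178-152016427 (Smc1a), chr19:53600146-53600395 (Smc3), chr9:100643198-100643447 (Stag1) and chr8:105636288-105636537 (Ctcf), all on the + strand. Capitals mark matches, on either strand, to GGGCGG (the SP1 box), CCAAT (NF-Y), TTTGAA (the letters of the cell cycle homology region) and TTTCCCGC (E2F), and none of these matches overlap.
Smc1a: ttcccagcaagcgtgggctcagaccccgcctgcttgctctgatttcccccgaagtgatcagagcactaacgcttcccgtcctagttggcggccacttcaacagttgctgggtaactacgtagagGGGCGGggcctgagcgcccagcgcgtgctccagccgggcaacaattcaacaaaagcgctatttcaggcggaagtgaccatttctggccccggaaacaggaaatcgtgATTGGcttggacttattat
Smc3: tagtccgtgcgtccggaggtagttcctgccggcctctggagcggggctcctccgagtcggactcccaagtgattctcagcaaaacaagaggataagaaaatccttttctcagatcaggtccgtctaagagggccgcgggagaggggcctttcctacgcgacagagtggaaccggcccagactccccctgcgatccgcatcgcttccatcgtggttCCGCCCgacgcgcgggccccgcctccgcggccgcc
Stag1: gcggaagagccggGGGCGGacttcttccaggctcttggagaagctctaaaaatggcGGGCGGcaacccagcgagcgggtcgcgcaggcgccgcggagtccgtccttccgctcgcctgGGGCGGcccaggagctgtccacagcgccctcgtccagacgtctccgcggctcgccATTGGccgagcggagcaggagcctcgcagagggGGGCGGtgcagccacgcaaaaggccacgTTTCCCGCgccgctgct
Ctcf: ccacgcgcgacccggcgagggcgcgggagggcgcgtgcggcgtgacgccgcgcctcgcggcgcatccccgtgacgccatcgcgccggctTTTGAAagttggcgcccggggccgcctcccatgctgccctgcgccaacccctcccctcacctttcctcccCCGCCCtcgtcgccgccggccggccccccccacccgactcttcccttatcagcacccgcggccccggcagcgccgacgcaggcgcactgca
All 4 hold more CpG, the dinucleotide of housekeeping promoters, than most: 16, 26, 31 and 40 in the order printed, against a median of 6 over 27025 promoters of that length. Fewer CpG were held by 74.4%, 90.8%, 95.1% and 98.7% of those promoters, so Smc1a stands out least. GGGCGG occurs 1 time in Smc1a, Smc3 and Ctcf and 4 times in Stag1, and 32.9% of all promoters hold it. CCAAT occurs in Smc1a and Stag1 (34.5% of all promoters), TTTGAA in Ctcf (16.3%) and TTTCCCGC in Stag1 (0.929%). CCCTC, a short stretch of letters found in CTCF sites and left in lower case, occurs 1, 2, 2 and 5 times in the printed order and in 59.7% of all promoters. CCGGAAG (ETS), TTTGGCGC (another E2F form), TGACGTCA (CREB) and the NRF1 and YY1 motifs are not in these windows, which says nothing of the factors. Rad21, Stag2 and Nipbl are named without a sequence.

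The 3 genes of the ring itself ran closely together across the groups. Smc1a, an X-linked gene, was at 473 and 466 CPM in the IL-7 culture, 474 and 466 CPM in the withdrawn culture and 247 and 236 CPM in the CXCL12 culture. Sorted wild type had 284 and 273 CPM and sorted CXCR4-/- 478 and 449 CPM. The CXCL12 culture was thus about as low as sorted wild type. The CXCR4-/- withdrawn culture had 435 and 519 CPM, the CXCR4-/- CXCL12 culture 540.0 and 557 CPM, the double culture 499.9 and 477 CPM and the inhibitor culture 443 and 457 CPM. Smc1a had a low level in 2 groups and a high level in the other 7, and the ranges of the low and the high groups did not meet. Within the high level 5 of the 6 pairs of neighbouring groups overlapped, and the CXCR4-/- CXCL12 culture stood above the rest.

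Smc3, the partner arm, had 356 and 359 CPM in the IL-7 culture, 314 and 315 CPM in the withdrawn and 181 and 181 CPM in the CXCL12 culture. Sorted wild type gave 256 and 239.5 CPM and sorted CXCR4-/- 323 and 308 CPM. The lowest pair was again the CXCL12 culture, with sorted wild type just above it. The CXCR4-/- cultures had 196 and 381 CPM when withdrawn and 396 and 427 CPM when given CXCL12, the double culture 373 and 386 CPM and the inhibitor culture 352 and 339.8 CPM. CXCR4-/- withdrawn replicate 1, at 196 CPM, was close to the CXCL12 culture while its partner was close to the high groups.

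Rad21, the clasp, repeated this pattern. The IL-7 culture gave 682 and 699.6 CPM, the withdrawn culture 751 and 737 CPM and the CXCL12 culture 362 and 357 CPM. Sorted wild type gave 478 and 439 CPM, below the 739 and 686 CPM of sorted CXCR4-/-. In the CXCR4-/- cultures it was 479 and 722 CPM (withdrawn) and 813 and 859 CPM (CXCL12), in the double culture 709.7 and 727 CPM and in the inhibitor culture 676 and 655 CPM. Every library outside the 2 lowest groups was above them, with CXCR4-/- withdrawn replicate 1 at 479 CPM level with the higher sorted wild-type library at 478 CPM.

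The 2 alternative Stag subunits did not share 1 pattern. Stag1 was lowest in sorted wild type at 134 and 127 CPM and had 190.2 and 188 CPM in sorted CXCR4-/-. The IL-7 culture had 251 and 247 CPM, the withdrawn culture 244 and 241 CPM and the CXCL12 culture 166 and 169 CPM. The CXCL12 culture was low, as for the ring genes, but sorted wild type was lower still. In the CXCR4-/- withdrawn culture Stag1 was at 127 and 192 CPM, in the CXCR4-/- CXCL12 culture at 225 and 246 CPM, in the double culture at 228 and 244 CPM and in the inhibitor culture at 213 and 209 CPM.

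Stag2, also X-linked, hardly separated the groups. It had 471 and 442 CPM in sorted wild type, 428 and 434 CPM in sorted CXCR4-/- and 436 and 436 CPM in the IL-7 culture. The withdrawn culture had 477 and 474 CPM and the CXCL12 culture 349 and 347 CPM. The CXCR4-/- cultures had 285 and 437 CPM (withdrawn) and 482 and 548 CPM (CXCL12), the double culture 442 and 454 CPM and the inhibitor culture 450.2 and 431 CPM. Apart from CXCR4-/- withdrawn replicate 1, only the CXCL12 culture lay outside a span of 428 to 548 CPM, and it lay below.

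Nipbl, the loader, ran in a different order from the ring it loads. It was highest in sorted wild type at 739 and 668 CPM and in the CXCL12 culture at 686 and 686 CPM, the 2 groups in which the ring genes were lowest. Sorted CXCR4-/- had 577 and 640.2 CPM, the IL-7 culture 438 and 429 CPM and the withdrawn culture 589 and 587 CPM. The double culture had 298 and 339.8 CPM and the inhibitor culture 369 and 366 CPM. The CXCR4-/- cultures were low, with 54.3 and 236 CPM in the withdrawn and 304 and 391 CPM in the CXCL12 culture. Its highest library exceeded its lowest 13.6-fold, and 3.14-fold when CXCR4-/- withdrawn replicate 1 was left out, against 1.76-fold to 2.41-fold for the other 6 members over all 18 libraries.

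Ctcf, which sets loop ends, had the smallest such ratio of the 7 over 18 libraries. It was at 440.3 and 422 CPM in sorted wild type and 525 and 509 CPM in sorted CXCR4-/-, the highest group. The IL-7 culture had 402 and 405 CPM, the withdrawn culture 429 and 429 CPM and the CXCL12 culture, the lowest group, 298 and 310.2 CPM. The CXCR4-/- cultures were at 302 and 437 CPM (withdrawn) and 487 and 514 CPM (CXCL12), the double culture at 415 and 433 CPM and the inhibitor culture at 413 and 389 CPM. Over the 7 members, the library values of 30 of 56 pairs of neighbouring groups in these orders overlapped.

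**Figure D1:**
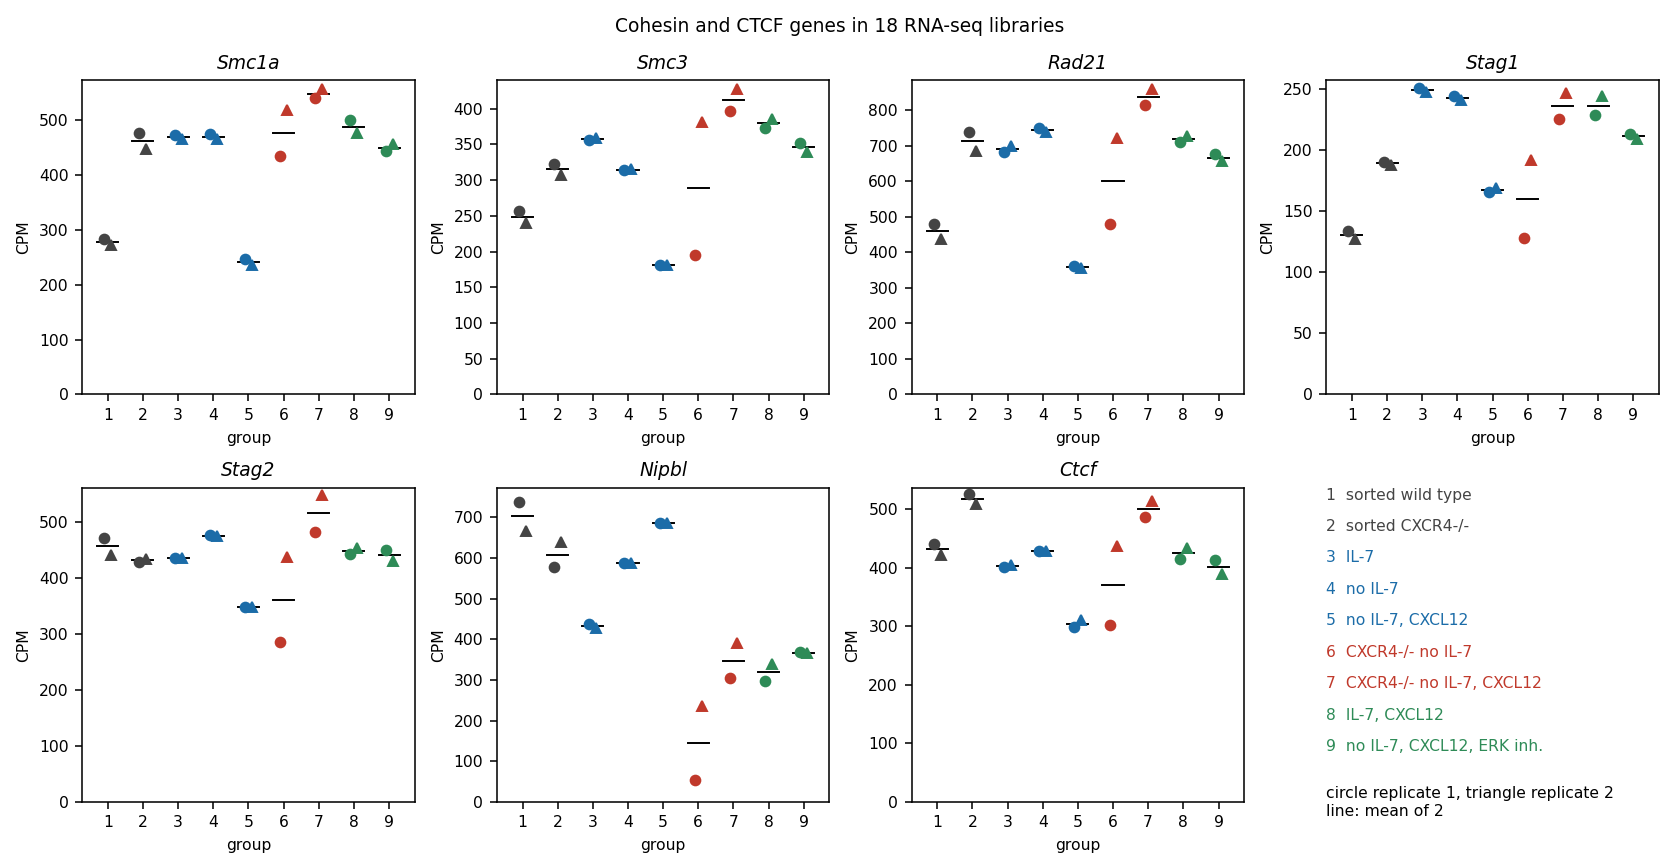
Level of each member in CPM (vertical axis, from 0) in the 9 groups (horizontal axis, numbered as in the key), with circles for replicate 1, triangles for replicate 2 and a line at the mean of the 2. The CXCL12 culture (group 5) is lowest for Smc1a, Smc3, Rad21, Stag2 and Ctcf, while Nipbl is high there, and in group 6 (CXCR4-/- withdrawn) replicate 1 is the lower point for all 7 members.

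CXCL12 given to CXCR4-sufficient cultures without IL-7 went with a fall of nearly all of these genes. Against the withdrawn culture 6 of 7 members fell and 0 rose, beside 13.2% of the 14862 genes tested that were called lower, and the median log2 change of the 7 was -0.54 against 0.09 over all genes. Rad21 fell by 1.05 on the log2 scale (SE 0.14, 0.483 times the level without CXCL12, adjusted p = 1.9e-04 by edgeR's quasi-likelihood test, as for every adjusted p here). Smc1a changed by -0.96 ± 0.09 (0.513 times, adjusted p = 6.9e-06) and Smc3 by -0.80 ± 0.21 (adjusted p = 0.013). The changes of Stag1 (-0.54 ± 0.14, adjusted p = 0.013), Ctcf (-0.49 ± 0.13, adjusted p = 0.013) and Stag2 (-0.45 ± 0.15, adjusted p = 0.037) put these genes at 0.69 to 0.73 of their level in the withdrawn culture. Nipbl was the exception at 0.22 ± 0.43 (95% interval -0.71 to 1.15, adjusted p = 0.73). In all 6 called genes both CXCL12 libraries lay below both libraries without it.

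With the 17 libraries the same 6 fell, with smaller errors (28.4% of 15312 genes called lower), from -0.55 ± 0.06 for Stag2 to -1.15 ± 0.06 for Rad21, and Nipbl was 0.13 ± 0.09 (adjusted p = 0.29). Only the calls of Smc1a and Rad21 lasted when any 1 of the 4 libraries was left out. With the closest pairs summed (2.75% of genes called lower) only that of Smc1a lasted (adjusted p = 0.027; Rad21 0.08, and 0.34 to 0.46 for the other 4), and with the pairs summed over 17 libraries (17.1% of genes) all 6 passed (adjusted p = 3.0e-05 to 0.0036). With only the 4 libraries compared, a fit that called 38.4% of genes higher and 39.6% lower, all 7 passed, Nipbl at 0.13 (adjusted p = 4.4e-09).

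Markers of other cells and of division moved with this fall. The 12 markers of dividing cells summed to 6482 and 6440 CPM in the withdrawn and 2223 and 2217 CPM in the CXCL12 culture, and all 12 fell. Stromal markers, of which only Lum had no read in either group, summed to 1057 and 1037 CPM and to 2343 and 2301 CPM in the same order, and the 10 myeloid markers, none at 0, to 300.5 and 299 CPM and to 751 and 752 CPM. Thy1 went against the rest of the stromal list and fell to 0.127 times its level. The part of all these markers in the result was not tested.

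Against the IL-7 culture, a comparison that shares its CXCL12 libraries with the one above, 5 members were lower in the CXCL12 culture and 0 higher, beside 21.5% of genes called lower. Smc3 (-0.98 ± 0.21), Smc1a (-0.96 ± 0.09) and Rad21 (-0.94 ± 0.14) were each at 0.51 to 0.52 of the level with IL-7. Stag1 (-0.57 ± 0.14, adjusted p = 0.0046) and Ctcf (-0.41 ± 0.13, adjusted p = 0.02) passed too, and Stag2 (-0.32 ± 0.15, adjusted p = 0.084) and Nipbl (0.66 ± 0.43, adjusted p = 0.22) did not. With 17 libraries (31.4% of genes called higher and 34.2% lower) Stag2 passed lower and Nipbl higher (0.54 ± 0.09, adjusted p = 1.8e-04). Summing the closest pairs (7.90% of genes called lower) left 2 members, Smc1a (adjusted p = 0.011) and Rad21 (adjusted p = 0.048). Between these groups the dividing-cell sums were 6321 and 6275 CPM (IL-7) and 2223 and 2217 CPM (CXCL12), the stromal ones 499 and 836 against 2343 and 2301 CPM and the myeloid ones 161 and 217 against 751 and 752 CPM, and their part was not tested. Thy1 of the stromal list went against its sum, to 0.070 times the level with IL-7.

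IL-7 withdrawal by itself, from the IL-7 to the withdrawn culture, gave 0 called members by edgeR's test, beside 5.60% of genes called higher and 6.23% lower. Of the 7, 0 had an unadjusted p under 0.05 and DESeq2 called 0. The log2 change of Smc1a was 0.00 ± 0.09, with a 95% interval of -0.19 to 0.19. Nipbl had the widest interval, -0.49 to 1.37. With 17 libraries (14.4% of genes called higher and 18.2% lower) Nipbl rose by 0.41 ± 0.09 (adjusted p = 0.0041), its libraries at 587 and 589 CPM against 429 and 438 CPM, Smc3 changed by -0.21 ± 0.05 (adjusted p = 0.0068), and the other 5 did not pass. Once the closest pairs were summed too 0 passed (9.39% of genes called), and with only the 4 libraries compared 5 did, in a fit that called 23.2% of genes higher and 30.4% lower. The dividing-cell markers summed to 6321 and 6275 CPM in the IL-7 culture, close to the 6482 and 6440 CPM of the withdrawn one, while the stromal ones (499 and 836 CPM) and the myeloid ones (161 and 217 CPM) summed to less than in the withdrawn culture. Thy1 of the stromal list was instead called lower in the withdrawn culture, at 0.55 times the level with IL-7.

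In the CXCR4-/- cultures no member was called lower with CXCL12. Over all libraries 5 were higher, beside 12.8% of genes called higher: Nipbl (1.26 ± 0.44, adjusted p = 0.043), Stag1 (0.56 ± 0.14, adjusted p = 0.022), Stag2 (0.51 ± 0.15), Rad21 (0.48 ± 0.14) and Ctcf (0.44 ± 0.13). Their sizes rest on the replicate that stood apart. Without it 3 were called higher, beside 5.70% of genes, at less than 0.6 on the log2 scale: Nipbl (0.57 ± 0.12, adjusted p = 0.018), Stag1 (0.31 ± 0.07, adjusted p = 0.018) and Stag2 (0.25 ± 0.07, adjusted p = 0.046), with the lone withdrawn library assumed to vary like the other groups. The count was 0 of 7 without either CXCR4-/- CXCL12 library (0.202% of genes called without replicate 1), with only the 4 libraries compared or with the closest pairs summed (adjusted p = 0.14 to 0.29 in the last). In the last 2 of these fits, and without replicate 2 of the CXCR4-/- CXCL12 culture, 0.00% of genes were called. Without replicate 2 of the withdrawn culture 7 members were called (27.7% of genes called higher). The unadjusted p was under 0.05 for 7 members, and DESeq2 called 7 (18.2% of genes called higher). The smallest change was that of Smc1a (0.20 ± 0.09, 95% interval 0.01 to 0.39, adjusted p = 0.09), and this interval does not reach the change of Smc1a in CXCR4-sufficient cultures. Dividing-cell markers summed to 6316 and 7114 CPM in the withdrawn and 7957 and 8338 CPM in the CXCL12 culture, stromal markers (Vcam1 at 0 in all) to 78.5 to 100.2 CPM in these 4 libraries and myeloid markers (Elane and Camp at 0 in all) to 14.8 to 20.2 CPM.

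The difference between the 2 CXCL12 changes was tested directly. In 6 of 7 members the change was lower in CXCR4-sufficient than in CXCR4-/- cultures, and in 0 higher, beside 12.1% of genes called lower. Rad21 differed by -1.53 ± 0.20 (adjusted p = 2.4e-04), Smc3 by -1.31 ± 0.29 (adjusted p = 0.0076), Smc1a by -1.16 ± 0.12 (adjusted p = 4.4e-05) and Stag1 by -1.10 ± 0.20 (adjusted p = 0.0021). Stag2 (-0.96 ± 0.21) and Ctcf (-0.93 ± 0.18) passed too. Nipbl (-1.04 ± 0.61, 95% interval -2.36 to 0.28) did not. Smc1a, whose 2 CXCR4-/- withdrawn libraries differed least on the log2 scale among the members, gave -1.15 ± 0.08 with 17 libraries, and all 7 passed there (20.7% of genes called lower), Nipbl at -0.45 ± 0.15 (adjusted p = 0.039). With the closest pairs summed (2.18% of genes called lower) only Smc1a passed (adjusted p = 0.033; Rad21 0.052, Smc3 0.2, Stag1 0.13, Stag2 0.2, Ctcf 0.16), and 6 did with the pairs summed over 17 libraries (12.0% of genes). With only the 8 libraries compared (6.08% of genes) 3 passed, Smc1a (adjusted p = 0.01) and Rad21 (adjusted p = 0.021) and Stag1 (adjusted p = 0.049). Cultures labelled CXCR4-/- were also labelled as small pre-B cells, so genotype and labelled stage cannot be fully told apart here.

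**Figure D2:**
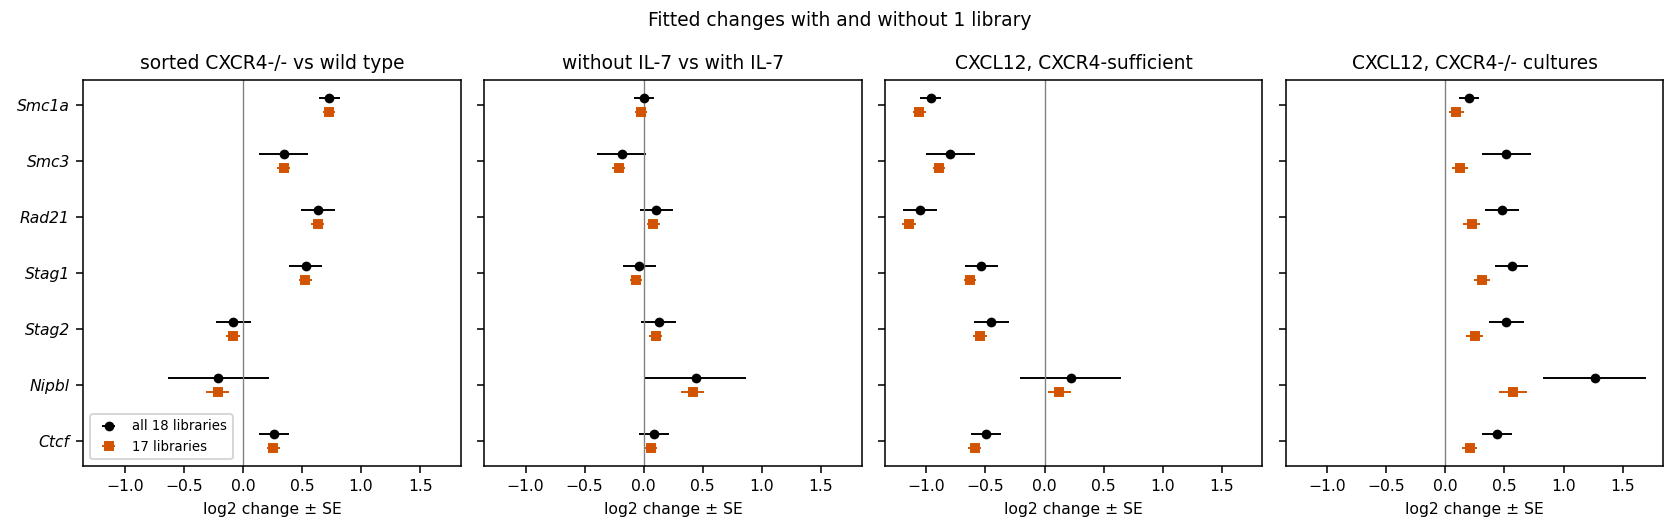
Fitted log2 change (horizontal axis, bars ± SE) of the 7 members in 4 comparisons, with black circles for all 18 libraries and orange squares for the 17 without replicate 1 of the CXCR4-/- withdrawn culture. In the CXCR4-sufficient cultures 6 genes lie left of 0 and Nipbl does not, in the CXCR4-/- cultures all 7 lie right of 0, and the bars shrink in the fit of 17 libraries.

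Between the sorted cells Smc1a, Rad21 and Stag1 were higher in those labelled CXCR4-/-. These were 3 members higher and 0 lower, beside 16.6% of genes called higher, with a median log2 difference of 0.35 for the 7 and -0.01 over all genes. Smc1a was 1.66-fold higher (0.73 ± 0.09, adjusted p = 4.7e-05), Rad21 1.55-fold (0.64 ± 0.14, adjusted p = 0.0043) and Stag1 1.45-fold (0.53 ± 0.14, adjusted p = 0.011), and in each both CXCR4-/- libraries lay above both wild-type ones. Smc3 (0.35 ± 0.21, adjusted p = 0.23) and Ctcf (0.26 ± 0.13, adjusted p = 0.14) did not pass although their library values did not overlap either. Stag2 (-0.08 ± 0.15, 95% interval -0.40 to 0.24) and Nipbl (-0.21 ± 0.43, 95% interval -1.14 to 0.72) were below 0. With 17 libraries (25.3% of genes called higher) Smc3 (0.34 ± 0.05, adjusted p = 7.6e-05) and Ctcf (0.26 ± 0.05, adjusted p = 6.7e-04) passed as well.

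The call of Stag1 ended without either wild-type library, and with the closest pairs summed (6.31% of genes called higher) only Smc1a passed (adjusted p = 0.023; Rad21 0.13, Stag1 0.2). The sorted groups differed in other respects as well. Dividing-cell markers summed to 1877 and 1826 CPM in wild type and to 6969 and 6230 CPM in CXCR4-/-, and 12 of 12 were higher there. Myeloid markers summed to 4926 and 4866 CPM in wild type but to 6127 and 1076 CPM in the CXCR4-/- replicates, and Xist, the RNA of the inactive X in females, was at 474 and 411 CPM in wild type and at 31.5 and 2078 CPM in the CXCR4-/- replicates. Smc1a, itself X-linked, was 478 and 449 CPM in the same libraries. Mature B cell markers summed to 1277 and 1213 CPM in wild type and 634 and 723 CPM in CXCR4-/-, with 6 of 7 called lower there and none at 0. Plasma cell markers summed to 569.6 and 549.7 CPM and 188 and 199 CPM, with 3 of 5 called lower and Tnfrsf17 at 0 in CXCR4-/-. The part of these differences in the result was not tested.

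In the double and inhibitor cultures the ring genes stood near their level in the IL-7 culture. Adding CXCL12 while IL-7 was kept gave 0 called members by edgeR's test, beside 15.3% of genes called higher and 16.5% lower (0 at an unadjusted p under 0.05, 0 by DESeq2), although this comparison crosses the 2 sets of libraries. Besides Gapdh and Rps29, Xist went from 0.615 and 0.647 to 1251 and 1519.7 CPM and the Y-linked Ddx3y from 123 and 125 to 6.996 and 7.017 CPM, so a difference in the sex of the cells cannot be told apart from that in the medium. The T and NK cell markers summed to 0.549 and 0.647 CPM in the IL-7 and 44.6 and 42.9 CPM in the double culture, the myeloid ones to 161 and 217 against 1829 and 1692 CPM, and the stromal ones, with only Lum at 0, to 499 and 836 against 58.4 and 55.7 CPM. Dividing-cell markers summed to 7618 and 7806 CPM in the double culture. The 95% intervals were -0.13 to 0.25 for Smc1a, -0.25 to 0.36 for Rad21 and -1.37 to 0.49 for Nipbl. With 17 libraries (30.9% of genes called lower) 1 member passed, Nipbl at -0.49 ± 0.09 (adjusted p = 6.6e-04). From the double to the inhibitor culture, a comparison inside 1 set, edgeR's test also called 0 members (6.50% of genes called higher and 4.54% lower; 0 at an unadjusted p under 0.05, 0 by DESeq2), with changes from -0.16 for Stag1 to 0.20 for Nipbl. Myeloid markers summed to 1829 and 1692 CPM in the double and 3365 and 3437 CPM in the inhibitor culture. Called higher were Lyz2 (490 and 449 to 1787 and 1826 CPM), Csf1r, Cd68 and Itgam. S100a8, S100a9, Mpo, Elane, Ngp and Camp were not called, with log2 changes of -0.24 (Mpo) to -0.02 (Ngp). In the same order stromal markers summed to 58.4 and 55.7 against 83.3 and 89.9 CPM and mature B ones to 325 and 312 against 206 and 207 CPM. Ighd of the mature B list was instead at 59.2 and 60.5 against 74.6 and 75.7 CPM. Dividing-cell markers summed to 7618 and 7806 against 6837 and 6887 CPM. The part of these markers was not tested. With 17 libraries (18.6% of genes called lower) Stag1 (-0.19 ± 0.05), Smc3 (-0.16 ± 0.05) and Smc1a (-0.15 ± 0.05) were lower by those small amounts.

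The inhibitor culture held more of the ring RNAs than the CXCL12 culture. Called were 4 higher and 0 lower, beside 26.9% of genes called higher: Smc3 (0.94 ± 0.21), Smc1a (0.90 ± 0.09), Rad21 (0.89 ± 0.14) and Ctcf (0.40 ± 0.13, adjusted p = 0.019). The first 3 were 1.85-fold to 1.91-fold higher with adjusted p of 2.9e-06 to 0.0022, and the inhibitor libraries of all 4 lay above both libraries without it. Nipbl stood at -0.90 ± 0.43 (adjusted p = 0.093) and, with 17 libraries (35.2% of genes called higher and 34.8% lower), at -0.86 ± 0.10 (adjusted p = 1.9e-06), lower while the other 6 were higher. With the closest pairs summed (14.8% of genes called higher) the calls of Smc3 (adjusted p = 0.068) and Ctcf (0.18) ended. This comparison crosses the 2 sets of libraries, and the ERK inhibitor cannot be told apart from the set or from the sex of the cells: Xist was at 0.798 and 1.54 CPM in the CXCL12 and 1438 and 1454 CPM in the inhibitor culture, and Ddx3y at 146 and 148 against 7.74 and 6.83 CPM. Dividing-cell markers summed to 2223 and 2217 CPM in the CXCL12 and 6837 and 6887 CPM in the inhibitor culture. In the same order stromal markers (Lum at 0 in the first) summed to 2343 and 2301 against 83.3 and 89.9 CPM, myeloid ones to 751 and 752 against 3365 and 3437 CPM, and T and NK ones to 1.69 and 1.93 against 44.2 and 42.9 CPM. Thy1 of the stromal list was instead 6.30-fold higher in the inhibitor culture. The part of these markers was not tested.

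Genotype was compared within a medium as well, across libraries that also differ, in part, in labelled stage. Replicate 2 of the withdrawn and of the CXCL12 culture carries small pre-B in its title or its count column. With CXCL12, 6 members were higher in the CXCR4-/- culture and 0 lower (27.3% of genes called higher): Rad21 (2.33-fold), Smc3 (2.28-fold), Smc1a (2.27-fold), Ctcf (1.65-fold), Stag2 (1.48-fold) and Stag1 (1.41-fold), all with adjusted p of 0.008 or less. Those of Stag1 and Stag2 ended with the closest pairs summed (16.7% of genes called higher; adjusted p = 0.12 and 0.097). With 17 libraries (34.2% of genes called higher and 39.9% lower) Nipbl was lower there at -0.94 ± 0.10 (adjusted p = 6.1e-07). Between the CXCL12 and the CXCR4-/- CXCL12 culture the dividing-cell sums went from 2223 and 2217 to 7957 and 8338 CPM, the stromal from 2343 and 2301 to 86.6 and 87.5 CPM, the myeloid from 751 and 752 to 15.4 and 14.8 CPM (S100a8, Elane and Camp at 0 in the latter) and the mature B from 597 and 583 to 177 and 197 CPM (Fcer2a at 0 in the latter). Thy1 went against the rest of the stromal list and was 15.6-fold higher in the CXCR4-/- CXCL12 culture. The part of all these markers was not tested. Without CXCL12, 3 members were lower and 0 higher (34.6% of genes called lower): Nipbl (-2.02 ± 0.44, adjusted p = 0.0017), Stag1 (-0.60 ± 0.14, adjusted p = 0.0025) and Stag2 (-0.40 ± 0.15, adjusted p = 0.031), while Smc1a was 0.02 ± 0.09. With 17 libraries (25.7% of genes called higher and 32.4% lower) these 3 stayed lower at -1.39 ± 0.12, -0.41 ± 0.07 and -0.19 ± 0.07 and Smc3 was higher at 0.21 ± 0.07 (adjusted p = 0.013). With the closest pairs summed (21.8% of genes called lower) only Nipbl passed (adjusted p = 0.038), and with only the 4 libraries compared 0 did (19.2% of genes called). Here stromal markers summed to 1057 and 1037 CPM in the withdrawn and 100.2 and 78.5 CPM in the CXCR4-/- withdrawn culture, myeloid ones to 300.5 and 299 against 16.4 and 20.2 CPM and mature B ones to 389 and 382 against 177 and 189.8 CPM. Thy1 of the stromal list was instead 2.06-fold higher in the CXCR4-/- withdrawn culture. Ccr7 of the mature B list also went against its sum, from 33.2 and 33.2 CPM (withdrawn) to 55.8 and 39.5 CPM (CXCR4-/- withdrawn).

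Sorted wild type and the CXCL12 culture, the 2 groups with the lowest dividing-cell sums, were set side by side. Beside 23.8% of genes called higher and 27.6% lower in the sorted cells, Ctcf (0.50 ± 0.13, adjusted p = 0.0061) and Stag2 (0.39 ± 0.15, adjusted p = 0.042) were higher in the sorted cells and Stag1 lower (-0.36 ± 0.14, adjusted p = 0.05, just under the threshold). Smc1a, Smc3 and Rad21 were above 0 without passing over all libraries and passed with 17 (31.1% of genes called higher and 35.2% lower) at 0.19 ± 0.05, 0.44 ± 0.05 and 0.34 ± 0.06. Nipbl did not differ beyond its error in either fit (0.04 ± 0.43 and 0.02 ± 0.09). No member passed once the closest pairs were summed (21.5% of genes called). These groups also differ in other markers. Myeloid markers summed to 4926 and 4866 CPM in sorted wild type and 751 and 752 CPM in the CXCL12 culture. Csf1r (0.171 times) and Cd68 (0.154 times) of that list were instead called lower in sorted wild type. In the same order stromal markers (Lum and Dcn at 0 in the first) summed to 40.4 and 38.7 against 2343 and 2301 CPM. Vcam1 of the stromal list was instead called higher in sorted wild type, 2.53-fold. Mature B markers summed to 1277 and 1213 against 597 and 583 CPM and plasma ones to 569.6 and 549.7 against 146 and 141 CPM. Xist was at 474 and 411 against 0.798 and 1.54 CPM. The part of these markers and of Xist was not tested.

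Ratios of reads within a library are free of scaling, and they were read across libraries only, since transcript lengths were not used. The ratio of Stag2 to Stag1 reads was 3.52 and 3.48 in sorted wild type but 2.25 and 2.31 in sorted CXCR4-/-. The IL-7 culture was lowest at 1.74 and 1.76, the withdrawn culture had 1.96 and 1.97 and the CXCL12 culture 2.10 and 2.06. The 14 culture libraries spanned 1.74 to 2.28, so both wild-type libraries stood outside all of the others. The replicates that disagreed in level hardly disagreed here: the CXCR4-/- withdrawn culture gave 2.24 and 2.28. With 2 libraries against 2 no exact permutation test can reach a p under 0.05, and none was run.

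The Smc1a to Smc3 ratio, between the 2 arms of the ring, was on the log2 scale 0.15 and 0.19 in sorted wild type, 0.56 and 0.54 in sorted CXCR4-/-, 0.41 and 0.38 in the IL-7 culture and 0.60 and 0.56 in the withdrawn one. CXCR4-/- withdrawn replicate 1 stood apart at 1.15 against 0.45 in its partner, and all other culture libraries lay between 0.31 and 0.60. The ratio of Nipbl to its partner Mau2 was on the log2 scale 1.87 and 1.86 in the withdrawn culture, 1.66 and 1.66 in the CXCL12 culture and 1.44 and 1.36 in sorted wild type. It was 0.02 in CXCR4-/- withdrawn replicate 1, against 1.24 to 1.87 in the other 17 libraries.

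**Figure D3:**
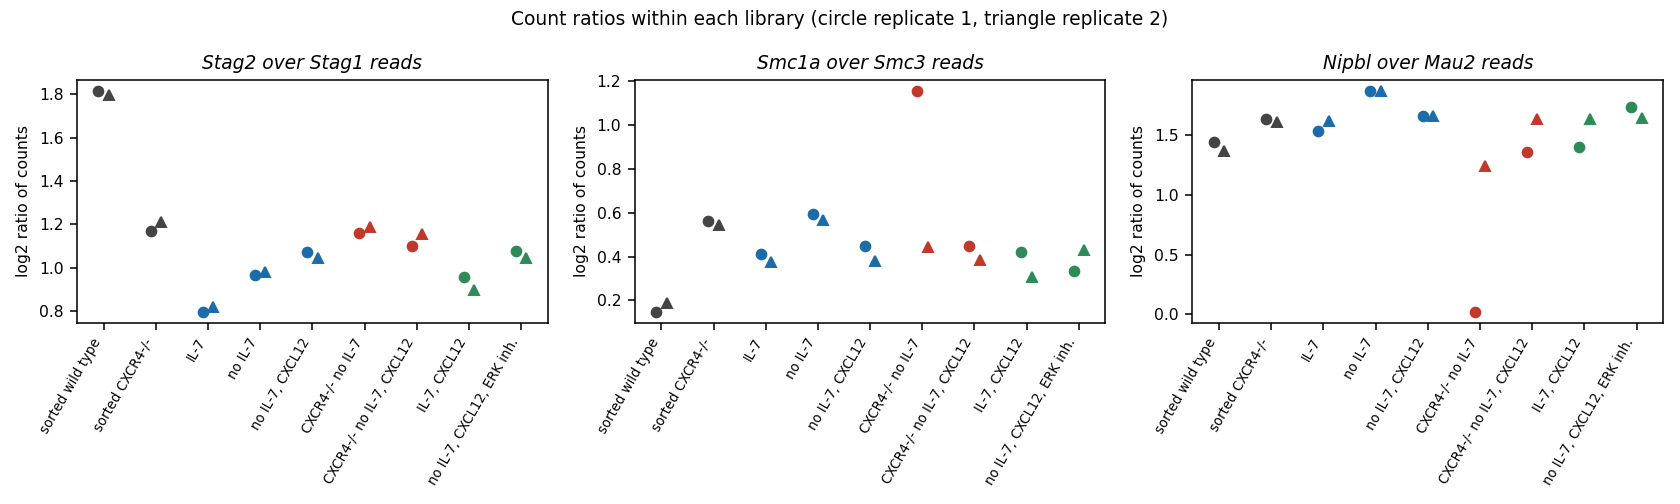
Ratio of reads between 2 genes of the same library on the log2 scale (vertical axes, not from 0), by group, with circles for replicate 1 and triangles for replicate 2. Stag2 over Stag1 stands at 1.81 and 1.80 in sorted wild type and at 0.80 to 1.21 elsewhere, while CXCR4-/- withdrawn replicate 1 stands out in the other 2 panels.

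Nipbl was the member most affected by the library that stood apart, and its level ran in part with a property of its gene. Between the 2 CXCR4-/- withdrawn libraries (replicate 1 minus 2) the log2 difference was -2.11 for Nipbl, and only 1.72% of 9149 genes at 10 CPM or more differed by more in that direction. Smc3 differed by -0.96, Stag2 by -0.62, Rad21 by -0.59, Stag1 by -0.59, Ctcf by -0.53 and Smc1a by -0.25. Nipbl, Stag1 and Stag2 lie in the quintile of genes with the longest genomic span, Smc1a, Smc3 and Ctcf in the next and Rad21 in the middle one (spans from RefSeq, GRCm38.p6, matched for 93.7% of genes). In that replicate the median log2 level of the 1715 genes of longest span, relative to the mean of all libraries, was 1.62 below that of the 1715 of shortest span, while the difference ran from -0.46 to 0.45 in the other 17. Along this measure Nipbl went from -2.91 in that replicate, through -0.80 in its partner, to 0.84 in sorted wild-type replicate 1. The order was not strict. Sorted CXCR4-/- replicate 1 stood at 0.05 on the measure with Nipbl at 0.49, and IL-7 replicate 1 at 0.18 with Nipbl at 0.09. Stag1, of the same quintile as Nipbl, was lowest in sorted wild type. The CXCL12 culture stood at 0.44 and 0.42 on the measure and the withdrawn culture at 0.33 in both libraries. The part of this shift in the changes of Nipbl was not tested.

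**Figure D4:**
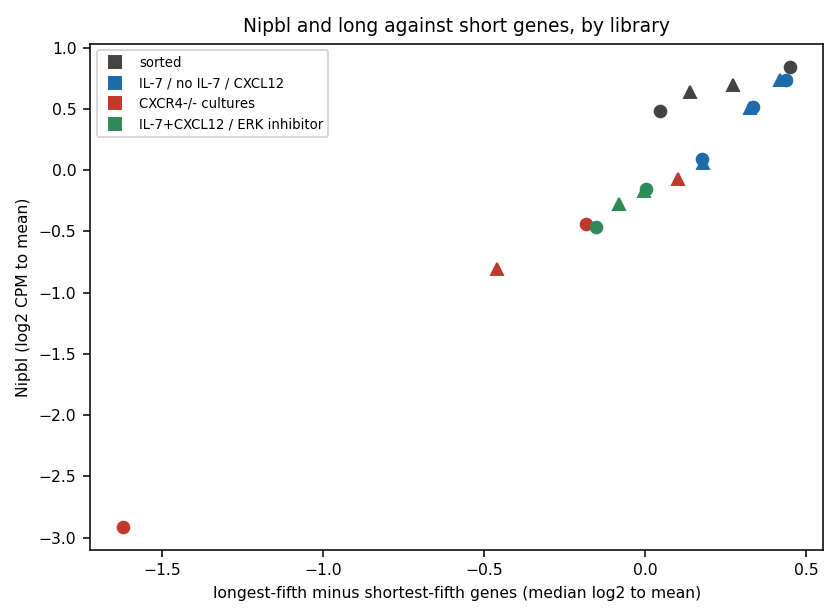
Each point is 1 of 18 libraries (circles replicate 1, triangles replicate 2, colours by set), with the median log2 level of the longest quintile of genes minus that of the shortest on the horizontal axis and the log2 level of Nipbl relative to its mean on the vertical axis. CXCR4-/- withdrawn replicate 1 lies alone at the lower left, at -1.62 and -2.91, and the other 17 lie between -0.46 and 0.45 on the horizontal axis.

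Several regulators of the ring were lower in the CXCL12 culture too. From the withdrawn to the CXCL12 culture 6 of 12 cohesin regulators fell and 0 rose, beside 13.2% of all genes called lower and 17.3% higher, with a median of -0.49 against 0.09 over all genes. Among them were Esco2, which acetylates Smc3 in S phase (-1.81 ± 0.12, adjusted p = 5.6e-07), Cdca5 (sororin), which protects the joined chromatids (-1.70 ± 0.09, adjusted p = 9.9e-08), and the centromere protectors Sgol1 (-1.70 ± 0.11, adjusted p = 4.4e-07) and Sgol2 (-1.56 ± 0.14, adjusted p = 6.9e-06). Espl1, the separase that cuts Rad21, gave -1.42 ± 0.18, adjusted p = 1.0e-04, with libraries at 191 and 182 CPM in the withdrawn and 71.3 and 68.1 CPM in the CXCL12 culture. Pds5b, a scaffold on Rad21, gave -0.53 ± 0.15, adjusted p = 0.019. Of the 6 that did not pass, Mau2 gave 0.43 ± 0.20, adjusted p = 0.12 and Wapal, which opens the ring and releases it, 0.42 ± 0.23, adjusted p = 0.19. With 17 libraries (22.6% of genes called higher and 28.4% lower) 2 rose and 7 fell, the risers being Mau2 (0.33 ± 0.06, adjusted p = 2.8e-04) and Wapal (0.33 ± 0.07, adjusted p = 0.0011), and Pds5a, a partner of Pds5b, fell (-0.55 ± 0.08, adjusted p = 5.7e-05).

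In the sorted cells the same list held 5 genes higher and 2 lower in CXCR4-/-, beside 16.6% of genes called higher and 17.6% lower, with a median of 0.33. Espl1 (2.71 ± 0.19, adjusted p = 6.0e-07), Sgol2 (2.30 ± 0.15, adjusted p = 3.1e-07), Cdca5 (2.12 ± 0.09, adjusted p = 1.2e-08), Sgol1 (2.01 ± 0.11, adjusted p = 8.8e-08) and Esco2 (1.64 ± 0.12, adjusted p = 8.7e-07) were higher. Wapal (-0.84 ± 0.23, adjusted p = 0.014) and Esco1, the acetylase that acts on Smc3 outside S phase (-0.76 ± 0.15, adjusted p = 0.0021), were lower. With 17 libraries (25.3% and 27.2% of genes) 7 were higher and 4 lower, Pttg1, the separase inhibitor securin, being lower at -0.53 ± 0.13, adjusted p = 0.0037. On IL-7 withdrawal 1 of 12 rose, close to the 5.60% of all genes called higher: it was Hdac8, which removes that acetyl group (0.63 ± 0.10, adjusted p = 0.0022, from 34.8 and 32.4 to 53.0 and 51.1 CPM). With 17 libraries 3 of 12 rose (14.4% of genes), Wapal (0.39 ± 0.07, adjusted p = 4.6e-04) and Sgol2 (0.43 ± 0.06, adjusted p = 4.0e-05) besides. In the CXCR4-/- cultures CXCL12 gave 6 higher and 1 lower over all libraries, beside 12.8% of genes called higher and 21.0% lower. With 17 it gave 5 higher and 0 lower (5.70% and 2.46% of genes), Espl1 being at 0.31 ± 0.07, adjusted p = 0.019.

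Condensin, the related complex that compacts mitotic chromosomes, had larger median changes than the 7 loop factors, a difference that was not tested. All 8 of its subunits fell from the withdrawn to the CXCL12 culture (median -1.58, beside 13.2% of genes called lower), from Ncaph2 at -0.83 ± 0.08, adjusted p = 9.4e-06 to Ncapg2 at -1.73 ± 0.14, adjusted p = 2.1e-06, and all 8 were higher in sorted CXCR4-/- than in sorted wild-type cells (median 1.38, beside 16.6% of genes called higher). With 17 libraries (28.4% and 25.3% of genes) these were again 8 of 8 in each comparison, with medians of -1.68 and 1.38. Ncapd2 stood at 883 and 864 CPM in the withdrawn and 268 and 278 CPM in the CXCL12 culture, and at 194 and 182 CPM in sorted wild type against 906 and 862 CPM in sorted CXCR4-/-. The 12 markers of dividing cells had medians of -1.55 and 2.08 in the same comparisons, beside -0.54 and 0.35 for the 7 loop factors. Of 6 genes of the Smc5/6 complex, a DNA repair relative, 1 fell with CXCL12, Smc6 (-0.95 ± 0.14, adjusted p = 3.6e-04), and 1 was higher in sorted CXCR4-/- cells, Smc6 again (0.63 ± 0.14, adjusted p = 0.0044), which is near the shares of all genes (13.2% and 16.6%). With 17 libraries 5 of the 6 fell with CXCL12 (28.4% of genes). In the sorted cells 5 were then higher (25.3% of genes), from Nsmce4a at 0.21 ± 0.06, adjusted p = 0.0047 to Smc6 at 0.63 ± 0.07, adjusted p = 1.9e-06, and 1 was lower (27.2% of genes), Smc5 at -0.19 ± 0.07, adjusted p = 0.045.

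Other factors that organise chromatin showed no common direction. Of 10 genes, 1 rose and 2 fell from the withdrawn to the CXCL12 culture (median -0.09), close to the 17.3% and 13.2% of all genes: Satb1, a chromatin organiser of lymphocytes (0.55 ± 0.14, adjusted p = 0.0096), rose, and Patz1 (-0.41 ± 0.12, adjusted p = 0.018) and Yy1 (-0.23 ± 0.08, adjusted p = 0.048), zinc finger proteins, fell. With 17 libraries 2 rose and 5 fell (22.6% and 28.4% of genes). In the sorted cells (16.6% of genes called higher and 17.6% lower) 2 were higher in CXCR4-/-, Maz (1.00 ± 0.12, adjusted p = 3.7e-05) and Patz1 (0.48 ± 0.12, adjusted p = 0.0066), and 3 lower, Vezf1 (-0.60 ± 0.11, adjusted p = 0.0012), Satb1 (-0.60 ± 0.14, adjusted p = 0.0047) and Yy1 (-0.27 ± 0.08, adjusted p = 0.022). With 17 libraries (25.3% and 27.2% of genes) 4 were higher and 5 lower. On IL-7 withdrawal 2 rose (5.60% of genes; again 2 with 17 libraries and 14.4%), Satb1 (0.61 ± 0.14, adjusted p = 0.012) and Vezf1 (0.51 ± 0.11, adjusted p = 0.01). Of the 5 genes of meiotic cohesin and the Ctcf paralogue, 2 were tested. Stag3, the meiotic Stag, had 17.4 and 17.2 CPM in the withdrawn and 7.38 and 7.65 CPM in the CXCL12 culture, 1.67 and 0.876 CPM in sorted wild type and 13.7 and 8.81 CPM in sorted CXCR4-/-, with differences of -1.20 ± 0.21, adjusted p = 0.0013 and 3.13 ± 0.26, adjusted p = 2.6e-06. With 17 libraries these were -1.30 ± 0.19, adjusted p = 3.7e-05 and 3.13 ± 0.25, adjusted p = 7.0e-08. Rec8, the meiotic clasp, was under 1 CPM in every library, and Rad21l and Ctcfl had no read in any.

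**Figure D5:**
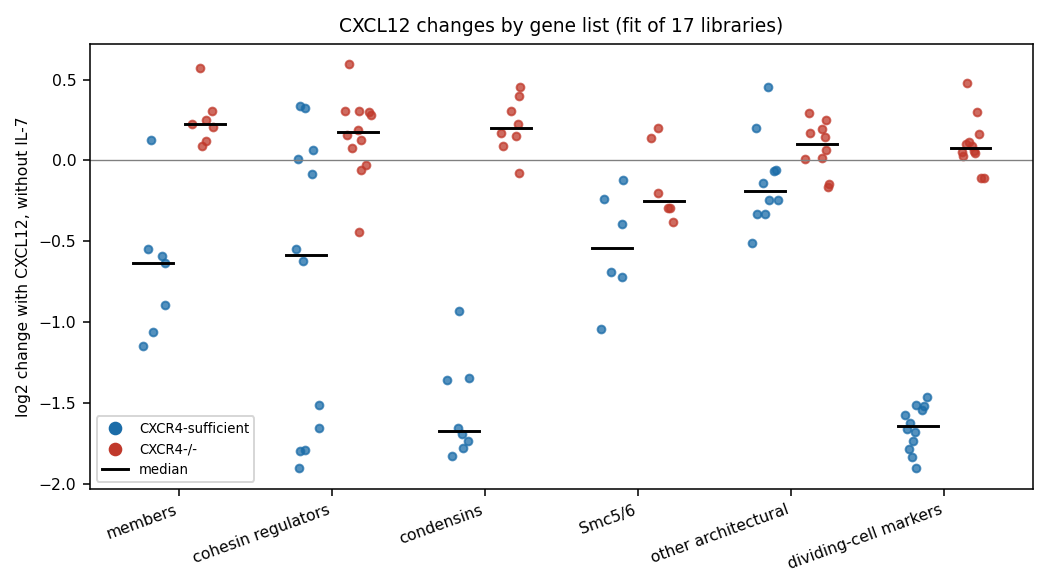
Log2 change from the withdrawn to the CXCL12 culture (vertical axis) of each gene of 6 lists in the fit of 17 libraries, blue for CXCR4-sufficient and red for CXCR4-/- cultures, with a black line at each median. In the CXCR4-sufficient cultures the condensins and the dividing-cell markers lie between -0.93 and -1.91, the 7 members between -1.15 and 0.13, and in the CXCR4-/- cultures most points of every list but Smc5/6 lie near or above 0.

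Genes most like each member were sought over the 9 group means, among 9148 others at 10 CPM or more, by the root mean square difference of centred log2 levels. Rad21 had Baz1b (0.09), Smc1a (0.10) and Suz12 (0.10) as its 3 nearest, and Smc3 stood at number 5. For Smc1a the nearest were Smyd4 (0.07), Nde1 (0.09) and Baz1b (0.10), with Rad21 at number 7 and Smc3 at 33, and for Smc3 they were Baz1b, Mtbp and Rttn (0.07 to 0.08), with Rad21 at number 12. The ring genes were near one another by this measure, and Stag2 and Ctcf were nearer to each other than to the ring: Ctcf was number 64 for Stag2. Stag2 was closest to Cox15, Pbrm1 and Sin3a, Ctcf to Casp8, Helb and Sin3a, and Stag1 to Flywch1, Srbd1 and Esyt1. Nipbl was closest to Btbd7 (0.08), Ssh2 (0.11) and Dvl3 (0.12) and far from the ring, standing at number 7933 for Smc1a, though these means include the replicate that stood apart.

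Counts of some members may hold reads of other genes. The RefSeq table places other annotated genes over Smc1a (Gm15267 and Ribc1), Rad21 (Gm52217), Stag1 (Gm3081 and Gm8661), Nipbl (LOC102634078) and Ctcf (Gm33578, Gm5914 and Gm5915), and the sources used here do not give the strand setting of the counting. No member had a pseudogene named after it in that table.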

How the data were processed

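RNA-seq libraries came from poly(A) RNA made with a stranded kit, per the labels' protocols. The deposited table holds whole read counts per gene, not normalised. STAR, featureCounts and the mouse build mm9 are named in the submitters' processing notes, without versions, roles or a strand setting. All 18 libraries entered 1 model of 9 groups in edgeR 4.0.16 (TMM scaling, filterByExpr, robust quasi-likelihood fit), with Benjamini-Hochberg adjustment within each of 12 comparisons and calls at an adjusted p under 0.05. The standard error is the log2 change divided by the square root of F. CPM divide each count by the TMM-scaled total of the tested genes. The code was tested on simulated data. The members and lists were chosen with earlier results of these data known. Named genes are the 7 members, the listed genes called in a comparison and the 3 genes nearest to each member. Alternatives were other scaling, no filter, DESeq2 1.42.0, fewer libraries, summed close pairs and a replicate block. 8 ATAC-seq libraries were not used here.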

Additional observations from a re-analysis of the deposited data

Results flagged for a closer look

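The CXCL12 change differed between CXCR4-sufficient and CXCR4-/- cultures in 6 members, by the test of the difference itself in edgeR's model. On the log2 scale (sufficient minus CXCR4-/-) it was -1.53 for Rad21, -1.31 for Smc3, -1.16 for Smc1a, -1.10 for Stag1, -0.96 for Stag2 and -0.93 for Ctcf. The replicate that stood apart, the summed markers of dividing cells and, in part, the labelled stage moved with it. The sums of stromal and of myeloid markers also rose with CXCL12 in CXCR4-sufficient cultures. Thy1 is included in the stromal sum but itself fell, to 0.127 times its level. These sums are given next. The stromal sum, Thy1 included, went from 1057 and 1037 to 2343 and 2301 CPM and the myeloid one from 300 and 299 to 751 and 752 CPM. In the CXCR4-/- cultures the same sums lay at 78.5 to 100.2 CPM and 14.8 to 20.2 CPM. The part of all these was not tested. With 17 libraries all 6 had an adjusted p under 0.05 by the same test. With the closest pairs summed only Smc1a did, and with only the 8 libraries compared 3 did, Smc1a, Rad21 and Stag1.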

How the results depend on the processing

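Counts below are members called of 7 by edgeR's test. They are given in the order sorted cells, IL-7 withdrawal, CXCL12 against withdrawn, CXCL12 against IL-7, CXCL12 in CXCR4-/-, its difference by genotype, inhibitor against double, double against IL-7, inhibitor against CXCL12, genotype withdrawn, genotype with CXCL12, and sorted wild type against the CXCL12 culture. The counts reported were 3, 0, 6, 5, 5, 6, 0, 0, 4, 3, 6 and 3, and a replicate block gave the same 12. The replicate numbers are only shared numbers in the labels. With only the libraries compared the counts were 5, 5, 7, 7, 0, 3, 1, 1, 7, 0, 7 and 6. With the closest pairs summed they were 1, 0, 1, 2, 0, 1, 0, 0, 2, 1, 4 and 0. With the pairs summed over 17 libraries, a choice made after seeing the data like the 17-library fit itself, they were 5, 0, 6, 7, 0, 6, 0, 1, 7, 2, 7 and 5. Leaving out 1 library at a time gave 2 to 5, 0 to 2, 2 to 6, 4 to 7, 0 to 7, 6 to 7, 0 to 3, 0 to 1, 3 to 7, 2 to 6, 5 to 7 and 1 to 6. Without the double and inhibitor cultures, which leaves no value for the 3 comparisons that use them, the CXCR4-/- cultures had 0 called members and sorted wild type against the CXCL12 culture had 1. That last comparison had 5 under RLE scaling, no filter, DESeq2 and with genes of ribosomal proteins or with pseudogenes left out. Fits with libraries left out or summed had fewer residual degrees of freedom. The cause of these shifts was not tested.

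The direction of some small changes turned. For Smc1a on IL-7 withdrawal (0.00 as reported) the log2 change was -0.038 with genes of ribosomal proteins or with pseudogenes left out, -0.035 with only the libraries compared, -0.022 without the double and inhibitor cultures, -0.024 with the pairs summed over 17 libraries, and -0.024 to 0.013 with 1 library left out. For Stag2 from the double to the inhibitor culture it was 0.014 under RLE scaling and DESeq2, 0.0052 with only the libraries compared and -0.066 to 0.0059 with 1 left out. From the IL-7 to the double culture, with the pairs summed over 17 libraries, Smc1a was at -0.014, Rad21 at -0.015 and Stag2 at -0.029, and with 1 library left out they ran over -0.032 to 0.069, -0.0047 to 0.075 and -0.021 to 0.042, and Ctcf over -0.00063 to 0.080. Between genotypes when withdrawn, Smc1a was at -0.041 without the double and inhibitor cultures and -0.11 to 0.073 with 1 left out, and Smc3 at 0.19 with the pairs summed over 17 libraries and -0.69 to 0.21 with 1 left out. Nipbl between sorted wild type and the CXCL12 culture ran from -0.037 to 0.11 with 1 left out. Of the values of single members under the alternatives, 1036 kept direction and side of the threshold, 80 passed newly, 106 no longer passed and 24 changed sign. Neighbouring groups overlapped in 31 of 56 cases under RLE scaling and 28 under total counts, and no level moved by more than 1.19-fold between scalings. Over all genes tested the CXCL12 culture against the withdrawn one had 4543 calls, 10790 with only the libraries compared and 562 with the closest pairs summed, and the sorted cells had 5079 and, with the pairs summed, 1789. The lowest count of a member in any library was 1315.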
